A study of Homo sapiens with 30 samples.

Results

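The genes described here are 10 surface molecules by which activated B lymphoblasts contact other leukocytes: the co-stimulatory molecules CD40, CD80, CD86, CD58, CD70 and FCER2, and the adhesion molecules ICAM1, ICAM3, ICAM4 and ITGAL. The cells were the human lymphoblastoid lines GM15036 and GM15510, B cells made immortal with Epstein-Barr virus. Members were all probe sets whose platform annotation names exactly 1 of these genes, which gave 22 of the 22283 probe sets of the array, and each gene had at least 1. A filter on the lowest 40 percent of mean levels left 13329 probe sets to test, 19 of them members. The 3 that did not pass were CD40 205153_s_at, FCER2 206760_s_at and ICAM1 215485_s_at, so every gene kept at least 1 tested probe set. ICAM4 was selected on its measured dose slope in GM15036, so its values in that line are given as a description, with no test.

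Cells of each line were grown in suspension and exposed to caesium-137 radiation at 1, 2.5, 5, 7.5 or 10 cGy, with 3 arrays for each line and dose and 30 arrays in all. The groups are thus GM15036 at 5 doses and GM15510 at 5 doses, each line being a single cell line and all groups irradiated. An unirradiated group was not analysed here, and each higher dose was compared with 1 cGy of its own line, and a change shared by all 5 doses cannot be seen. The sample labels give the dose in cGy while the design text gives the same figures in Gy. The unit of the labels is used, and the interval from exposure to harvest is not stated. Whether a group's 3 arrays hold RNA of different cultures is not stated either, so p-values measure the spread between arrays, which may be technical, and the small number of arrays limits the precision.

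B cells present antigen to T cells through a contact zone that needs 2 kinds of molecule. Adhesion is carried by LFA-1, a heterodimer of the αL chain encoded by ITGAL and the β2 chain encoded by ITGB2, which binds the intercellular adhesion molecules ICAM1 and ICAM3, and by CD58 (LFA-3), the ligand of CD2 on T cells. Co-stimulation is carried by CD80 and CD86, ligands of CD28 and CTLA4, by CD40, the receptor of CD40 ligand, and by CD70, the ligand of CD27. FCER2 encodes CD23, the low-affinity IgE receptor and a ligand of the complement receptor CR2. ICAM4 is the Landsteiner-Wiener blood group glycoprotein, best known from red cells. Lymphoblastoid lines carry many of these molecules at high surface density because a viral membrane protein that mimics CD40 drives NF-κB in them.

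ICAM1, ICAM4 and ICAM3 lie on chromosome 19 in that order, with ICAM5, ZGLP1, FDX2 and RAVER1 between ICAM4 and ICAM3, and CD58 lies on chromosome 1. The 250 bases before a start site of these 4 genes are shown because 3 of them, CD58, ICAM3 and ICAM4, carry the dose patterns described below, and because ICAM1, the neighbour of ICAM4, had no called dose difference. The sequences and coordinates are those of RefSeq on GRCh38.p14, each 5′ to 3′ on the strand of its gene, and capitals mark matches on either strand to GGAAATTCC (an NF-κB-type site), GGGCGG (a GC box) or TATAAA.
ICAM1 (chr19:10270870-10271119, plus strand): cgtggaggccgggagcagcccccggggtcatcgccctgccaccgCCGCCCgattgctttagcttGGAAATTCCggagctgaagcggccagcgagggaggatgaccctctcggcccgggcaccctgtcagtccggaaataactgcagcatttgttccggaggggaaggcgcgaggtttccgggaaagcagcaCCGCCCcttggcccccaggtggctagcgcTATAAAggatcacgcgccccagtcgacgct
ICAM4 (chr19:10286705-10286954, plus strand): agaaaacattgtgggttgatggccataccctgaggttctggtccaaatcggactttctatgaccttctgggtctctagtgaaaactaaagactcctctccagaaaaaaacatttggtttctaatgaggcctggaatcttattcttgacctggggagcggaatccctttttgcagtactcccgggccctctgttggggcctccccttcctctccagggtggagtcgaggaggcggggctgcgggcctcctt
ICAM3 (chr19:10339625-10339874, minus strand): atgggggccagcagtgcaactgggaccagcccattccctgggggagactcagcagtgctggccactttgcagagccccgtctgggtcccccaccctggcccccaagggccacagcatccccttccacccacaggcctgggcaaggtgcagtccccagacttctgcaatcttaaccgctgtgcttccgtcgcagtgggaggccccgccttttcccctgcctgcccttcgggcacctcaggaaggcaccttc
CD58 (chr1:116571027-116571276, minus strand): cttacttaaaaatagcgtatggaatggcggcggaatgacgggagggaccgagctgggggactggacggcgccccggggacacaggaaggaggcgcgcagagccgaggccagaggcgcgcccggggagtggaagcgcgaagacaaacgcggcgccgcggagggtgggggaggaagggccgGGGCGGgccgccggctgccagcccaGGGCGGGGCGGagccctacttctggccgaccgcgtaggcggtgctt

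The ICAM1 window held GGAAATTCC beginning 186 bases before the start site, GGGCGG on the other strand (printed as CCGCCC) at 206 and 59 bases and TATAAA at 30 bases. The CD58 window held GGGCGG at 71, 46 and 41 bases, of which the last 2 matches share 1 base. The ICAM4 window and the ICAM3 window printed held no match to the 3 motifs, while another start site of ICAM3 (chr19:10334821-10335070) had GGGCGG at 188 and 33 bases. Among 35116 human promoter windows of this length, 0.413% held GGAAATTCC, 42.6% GGGCGG and 10.7% TATAAA. Of the 10 genes, 7 had a window in the RefSeq table, 11 windows in all, and CD40, CD70 and ITGAL had none. A match describes letters in the window and no more.

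The deposited signals were not at a common level. Before scaling, the trimmed mean signal of an array averaged 69.6, 49.8, 51.3, 32.4 and 22.1 in GM15036 at 1, 2.5, 5, 7.5 and 10 cGy, and 69.4, 18.7, 39.0, 67.7 and 89.1 in GM15510 (n = 3 each). Brightness thus fell with dose in GM15036 and was lowest at 2.5 cGy in GM15510. The 5 dimmest arrays were replicates a and b of GM15036 at 10 cGy, replicates 2 and 3 of GM15510 at 2.5 cGy and replicate 1 of GM15510 at 5 cGy. All 7 B-cell markers with a usable probe set passed the filter, with a summed scaled signal of 1489 to 2167 per array, and all 5 plasma-cell markers passed (890.4 to 1704). Of the markers of other cells, 1 of 8 passed for T and NK cells (CD3E; summed signal 17.0 to 81.3), 0 of 5 for monocytes (9.47 to 41.1), 1 of 3 for erythroid cells (HBB; 5.33 to 30.2) and 2 of 5 for fibroblasts (COL1A1 and COL1A2; 24.97 to 79.7). Below, a signal is the scaled intensity of a probe set, a difference is on the log2(signal + 4) scale, which understates the change of dim probe sets, and levels of different probe sets are not compared. Each adjusted p is from limma with Benjamini-Hochberg adjustment over all 13329 probe sets, with a threshold of 0.05.

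Dose differences among these molecules lay mainly in CD58, ICAM3 and ITGAL, and the lines differed in where they lay. In GM15036, with ICAM4 set aside, 3 of 18 tested probe sets were called at 2.5 cGy against 1 cGy (16.7%), all of them CD58 and all lower, where 0.548% of all probe sets were called and 0.428% were called lower. At 5 cGy, 1 of 18 was called, a CD58 probe set that was higher, against 0.143% of all probe sets in either direction and 0.0525% upwards. One CD58 probe set of 18 (5.56%) was lower at 7.5 cGy, against 3.22% of all called and 1.95% called lower. At 10 cGy, 3 of 18 (16.7%) were called, 2 lower (CD58) and 1 higher (ITGAL), not far above the 11.7% of all probe sets (7.35% lower and 4.39% higher).

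In GM15510, 1 of 19 probe sets (5.26%) was called at 2.5 cGy, a lower CD58 probe set, which is below the 9.49% of all probe sets called and near the 5.57% called lower. The same probe set was the 1 of 19 called at 5 cGy, against 4.19% of all, 2.12% of them lower. At 7.5 cGy 3 of 19 (15.8%) were higher, 2 of CD58 and 1 of ICAM3, against 1.79% of all probe sets called and 1.04% called higher. At 10 cGy only ICAM3 was called among the 19, upwards, against 5.91% of all called and 3.09% called higher. For comparison, the 3 arrays of a dose did not overlap those at 1 cGy in 16.4% to 27.1% of all probe sets, depending on the dose. The median difference of the tested members against 1 cGy lay between −0.26 (7.5 cGy) and 0.11 (5 cGy) in GM15036, and between −0.066 (10 cGy) and 0.22 (7.5 cGy) in GM15510. The medians of all tested probe sets lay between −0.011 and 0.030 in these comparisons.

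**Figure D1:**
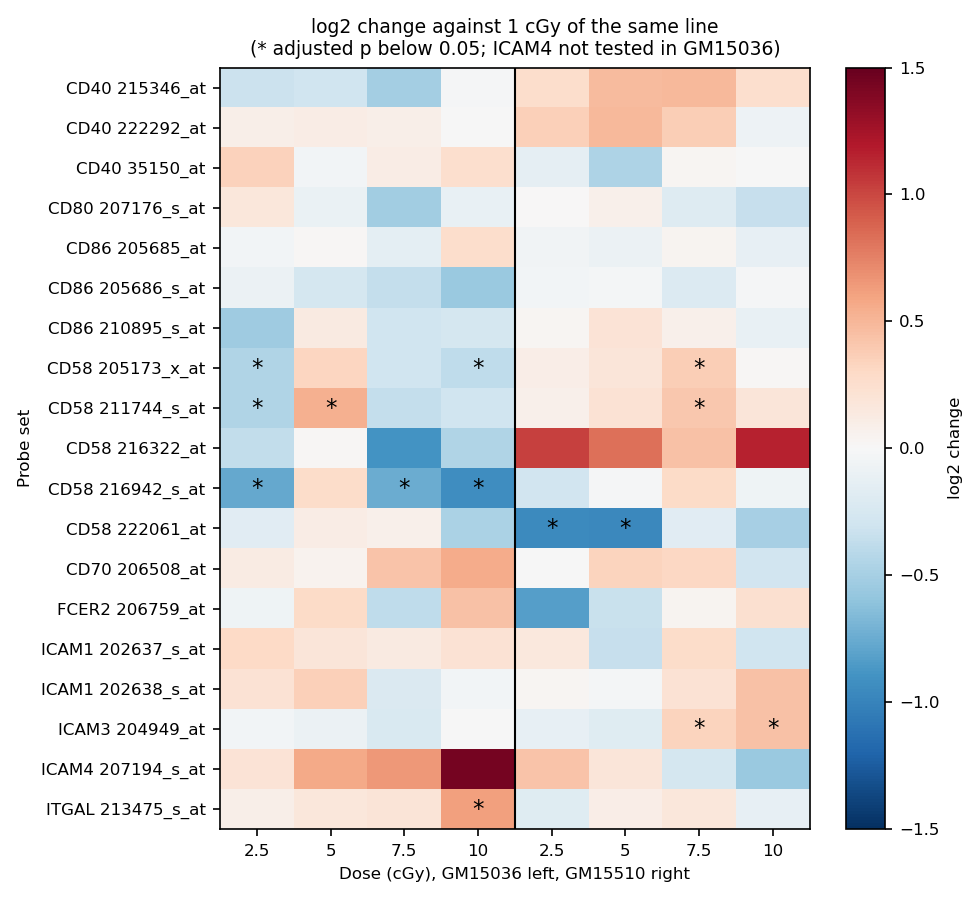
Log2 change of scaled signal at 2.5, 5, 7.5 and 10 cGy against 1 cGy of the same line for the 19 tested probe sets (down the page), with GM15036 on the left and GM15510 on the right; colour runs from −1.5 to 1.5 and an asterisk marks an adjusted p below 0.05. CD58 carries most marks, and ICAM4 was not tested in GM15036.

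CD58, the CD2 ligand, was measured by 5 probe sets, and 3 of them (216942_s_at, 211744_s_at and 205173_x_at) moved together. Across the 10 group means, centred within each line, these 3 correlated at 0.965, 0.920 and 0.897 with each other, which describes probe sets of 1 gene on the same arrays. In GM15036 their group means lay below those at 1 cGy at 2.5, 7.5 and 10 cGy and above them at 5 cGy, so the signal did not follow dose steadily. In RNA of whole cultures, fewer cells with a transcript and less transcript per cell cannot be told apart.

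In GM15036, 216942_s_at had signals of 173, 140.3 and 131 at 1 cGy, 86.3, 85.1 and 82.9 at 2.5 cGy, 196, 186 and 156 at 5 cGy, 98.7, 72.6 and 89.7 at 7.5 cGy, and 82.5, 76.1 and 67.8 at 10 cGy. In GM15510, it had 112, 117 and 100.1 at 1 cGy, 78.7, 92.1 and 97.3 at 2.5 cGy, 93.7, 109 and 123 at 5 cGy, 136, 147 and 121 at 7.5 cGy, and 105, 111 and 97.9 at 10 cGy. Every GM15036 array at 2.5, 7.5 and 10 cGy was below every one at 1 cGy, while the 5 and 1 cGy arrays overlapped. The signal at 10 cGy was 0.525 times that at 1 cGy, a log2 difference of −0.93 (SE 0.135, n = 3 each, adjusted p = 1.45e-05). The differences at 2.5 cGy (−0.77, adjusted p = 0.00336) and 7.5 cGy (−0.74, adjusted p = 0.00109) also passed, and that at 5 cGy (0.28, adjusted p = 0.622) did not. These 3 calls held under each other setting tried and without each array in turn.

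The linear slope of 216942_s_at in GM15036 was −0.078 log2 units per cGy (SE 0.013, adjusted p = 7.1e-05), and it did not pass without the 10 cGy dose (−0.048, adjusted p = 0.232). In GM15510 no single dose passed for this probe set, although the F test of any difference among doses did (adjusted p = 0.0273). That F test did not pass with brightness as a covariate (adjusted p = 0.143) or without replicate 1 at 2.5 cGy (0.0913), replicate 1 at 7.5 cGy (0.0761) or replicate 2 at 7.5 cGy (0.116).

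For 211744_s_at, the GM15036 arrays gave 286, 275 and 266 at 1 cGy, 205, 187 and 209 at 2.5 cGy, 421, 379 and 401 at 5 cGy, 206, 219.6 and 218 at 7.5 cGy, and 210.5, 249 and 212 at 10 cGy. The GM15510 arrays gave 214, 232 and 183 at 1 cGy, 221, 207 and 235 at 2.5 cGy, 241, 228 and 259 at 5 cGy, 259, 315 and 259 at 7.5 cGy, and 276, 209 and 229 at 10 cGy. The GM15036 arrays at 5 cGy stood above all other arrays of both lines. Against 1 cGy of GM15036, this probe set was higher at 5 cGy (0.53, SE 0.106, adjusted p = 0.0213) and lower at 2.5 cGy (−0.45, adjusted p = 0.0392). At 7.5 cGy (−0.35, adjusted p = 0.0585) and 10 cGy (−0.30, adjusted p = 0.0639) the differences had the same sign but did not pass. In GM15510 the 7.5 cGy arrays lay above every 1 cGy array, with a difference of 0.40 (adjusted p = 0.0422).

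The 211744_s_at calls did not all pass when an array was left out, while the differences themselves stayed between −0.48 and −0.41 at 2.5 cGy and between 0.50 and 0.57 at 5 cGy in GM15036. The 2.5 cGy call of GM15036 did not pass without replicate a, b or c at 1 cGy (adjusted p = 0.142, 0.124 and 0.083) or without a, b or c at 2.5 cGy (0.0984, 0.214 and 0.0818), nor with the replicate label as a block (0.064). The 5 cGy call did not pass without b or c at 1 cGy (0.158 and 0.0965) or without a, b or c at 5 cGy (0.133, 0.0682 and 0.104). The 7.5 cGy call in GM15510 held in 23 of 30 fits without an array, the highest adjusted p being 0.269 without replicate 3 at 1 cGy. Other settings also mattered: of 15, the 2.5 cGy call passed under 10 and the 5 cGy call under 12 (highest adjusted p 0.132 and 0.755). The GM15510 call passed under 9 of 15 (highest 0.607).

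The remaining probe set of the 3, 205173_x_at, gave 689.6, 658 and 584 in GM15036 at 1 cGy, 479, 468 and 457 at 2.5 cGy, 802, 829 and 790.5 at 5 cGy, 502, 519 and 549.8 at 7.5 cGy, and 505, 439 and 533 at 10 cGy. In GM15510 it gave 497, 535 and 526 at 1 cGy, 513, 602 and 552 at 2.5 cGy, 525, 585 and 662 at 5 cGy, 658, 692 and 671 at 7.5 cGy, and 512, 565 and 499 at 10 cGy. No GM15036 array at 2.5, 5, 7.5 or 10 cGy fell within the range of the 1 cGy arrays, those at 5 cGy lying above it and the others below. The differences in GM15036 were −0.45 at 2.5 cGy (SE 0.0901, adjusted p = 0.0116) and −0.39 at 10 cGy (adjusted p = 0.00352), and those at 5 cGy (0.33, adjusted p = 0.148) and 7.5 cGy (−0.29, adjusted p = 0.0644) did not pass. In GM15510 the 7.5 cGy arrays all exceeded the 1 cGy arrays, by 0.37 (adjusted p = 0.0242).

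For 205173_x_at, the 10 cGy call in GM15036 did not pass with brightness as a covariate (−0.22, adjusted p = 0.449) or without the 5 dimmest arrays (−0.27, 0.17). The 2.5 cGy difference lay between −0.52 and −0.40 without each array, and its call did not pass without replicate a or b at 1 cGy (0.0863 and 0.0712) or replicate b or c at 2.5 cGy (0.0583 and 0.0627). The GM15510 call at 7.5 cGy did not pass without replicate 1 or 3 at 1 cGy (0.138 and 0.0729) or without replicate 1, 2 or 3 at 7.5 cGy (0.0691, 0.0729 and 0.0726). Its slope in GM15036 was −0.026 per cGy (adjusted p = 0.0458) and passed in 13 of 30 fits without an array. Under other settings the 2.5 cGy call passed in 13 of 15, the GM15510 call in 11 of 15 and the slope in 9 of 16.

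**Figure D2:**
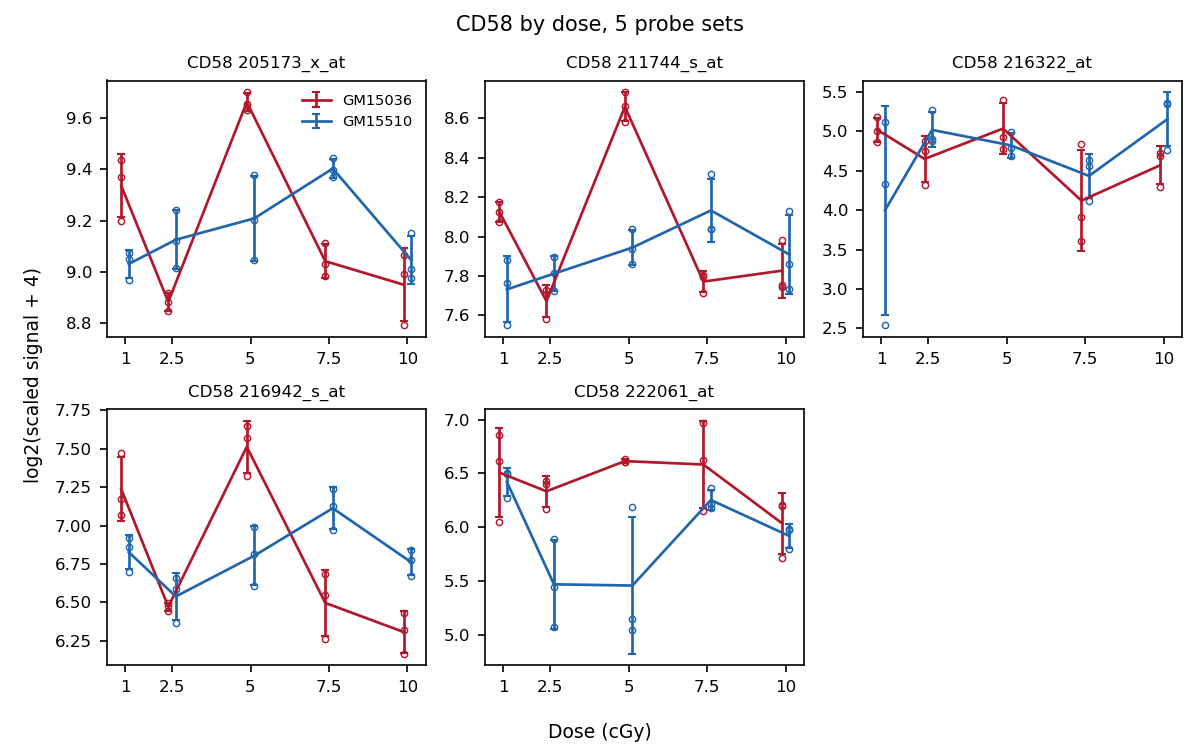
Log2(scaled signal + 4) of the 5 CD58 probe sets against dose in cGy, with a point per array, lines through the group means and bars for the SD (n = 3); GM15036 is red and GM15510 blue. In GM15036, 216942_s_at, 211744_s_at and 205173_x_at are highest at 5 cGy and lower at 2.5, 7.5 and 10 cGy than at 1 cGy.

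The dose courses of these 3 probe sets differed between the lines. The F test of the line by dose interaction gave adjusted p = 8.78e-06 for 216942_s_at, 1.09e-05 for 211744_s_at and 2.28e-05 for 205173_x_at, and all 3 passed under every other setting and without each array. The slope difference, GM15036 minus GM15510, was −0.099 per cGy (SE 0.0184, adjusted p = 3.52e-04), −0.050 (adjusted p = 0.0224) and −0.038 (adjusted p = 0.0434) in the same order. None passed once array brightness entered the fit: the differences were then −0.088 (adjusted p = 0.174), −0.043 (0.492) and −0.0077 (0.937). The slope difference of 211744_s_at also did not pass without replicate a of GM15036 at 10 cGy (0.0534) or without replicate 3 at 1 cGy (0.0633) or 1 at 10 cGy (0.0884) of GM15510, and that of 205173_x_at passed in 11 of 30 fits without an array. Among members apart from ICAM4, 5 of 18 probe sets (27.8%) had a called interaction, 4 of CD58 and 1 of ICAM3, against 20.5% of all probe sets.

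The other CD58 probe sets did not share this course. For 222061_at, the GM15036 signals were 62.3, 112 and 93.8 at 1 cGy, 67.9, 80.5 and 82.2 at 2.5 cGy, 95.2, 93.3 and 93.2 at 5 cGy, 121, 67.2 and 94.7 at 7.5 cGy, and 69.9, 48.3 and 69.2 at 10 cGy. The GM15510 signals were 85.9, 73.2 and 86.6 at 1 cGy, 29.6, 55.5 and 39.5 at 2.5 cGy, 28.9, 31.4 and 68.9 at 5 cGy, 78.2, 70.3 and 68.5 at 7.5 cGy, and 51.5, 58.9 and 59.3 at 10 cGy. In GM15510 the 2.5, 5 and 10 cGy arrays were all below the 1 cGy arrays, whereas each GM15036 group overlapped its 1 cGy arrays. The GM15510 differences were −0.95 at 2.5 cGy (SE 0.236, adjusted p = 0.00837) and −0.96 at 5 cGy (adjusted p = 0.0132), while −0.50 at 10 cGy did not pass (0.268). Across the 10 centred group means, 222061_at correlated at 0.24 to 0.50 with the 3 probe sets above.

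Mean brightness in GM15510 was lowest at 2.5 and 5 cGy, where 222061_at was called lower (18.7 and 39.0, against 69.4 at 1 cGy). Brightness was highest at 10 cGy (89.1), where 222061_at also lay below every 1 cGy array, by a difference that did not pass. At that dose 27.1% of all probe sets had no overlap with 1 cGy. In the fit with array brightness the 2.5 and 5 cGy differences were −0.23 (adjusted p = 0.844) and −0.57 (0.323). Without the 5 dimmest arrays the 5 cGy difference was −0.76 (0.081). The 2.5 cGy call did not pass without replicate 1 at 2.5 cGy (0.0573), nor the 5 cGy call without replicate 1 or 3 at 1 cGy (0.0599 and 0.0652) or replicate 1 or 2b at 5 cGy (0.124 and 0.0929). Its interaction had adjusted p = 0.0444 and passed in 9 of 30 fits without an array and under 8 of 14 other settings. The fifth CD58 probe set, 216322_at, ranged from 1.81 to 38.4 over all arrays and was called in no comparison.

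ICAM3, an LFA-1 ligand of resting leukocytes, was higher at 7.5 and 10 cGy than at 1 cGy in GM15510 and showed no called dose difference in GM15036. Its probe set 204949_at gave 282, 291 and 309 in GM15036 at 1 cGy, 278, 292 and 290.0 at 2.5 cGy, 283, 250.2 and 293 at 5 cGy, 234, 264 and 249.7 at 7.5 cGy, and 274, 285 and 317 at 10 cGy. In GM15510 it gave 152, 146 and 159.9 at 1 cGy, 135, 139 and 144 at 2.5 cGy, 128, 129 and 144 at 5 cGy, 209, 181 and 191 at 7.5 cGy, and 207, 207 and 209 at 10 cGy. The GM15510 arrays at 7.5 and 10 cGy stood above all 9 arrays at lower doses of that line. The ICAM3 signal at 10 cGy was 1.35 times that at 1 cGy in GM15510 (log2 difference 0.44, SE 0.0909, adjusted p = 0.00204). At 7.5 cGy the difference was 0.34 (adjusted p = 0.0465), and at 2.5 and 5 cGy it was −0.12 and −0.18, neither of which passed. Every GM15510 array at 2.5 and 5 cGy lay below every 1 cGy array, so the signal did not rise steadily. At these doses 26.2% and 23.5% of all probe sets had no overlap with 1 cGy.

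The ICAM3 slope was 0.061 per cGy in GM15510 (SE 0.0088, adjusted p = 3.34e-05), the only called slope there among the 19 members, where 4.62% of all probe sets were called, 2.72% of them upwards. In GM15036 the slope was −0.0088 (adjusted p = 0.601), and the slope difference was −0.070 (adjusted p = 2.25e-04). The interaction F test gave adjusted p = 1.24e-04. In the fit with array brightness the slope difference was −0.056 (adjusted p = 0.205), and without the 10 cGy dose the GM15510 slope was 0.048 (0.0525). The 7.5 cGy call passed in 14 of 30 fits without an array, the highest adjusted p being 0.242 without replicate 1 at 7.5 cGy, and the 10 cGy call did not pass when unscaled arrays were centred on their medians (0.48, 0.189). Under other settings the 7.5 cGy call passed in 7 of 15.

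ITGAL, the αL chain of LFA-1, was higher at 10 cGy than at 1 cGy in GM15036. The signals of 213475_s_at in GM15036 were 124, 98.9 and 83.1 at 1 cGy, 106, 102 and 116 at 2.5 cGy, 114, 118 and 109 at 5 cGy, 116, 109 and 123 at 7.5 cGy, and 146, 187 and 139 at 10 cGy. Those in GM15510 were 79.3, 73.9 and 66.2 at 1 cGy, 78.2, 61.4 and 53.5 at 2.5 cGy, 75.7, 78.9 and 80.3 at 5 cGy, 72.4, 100.1 and 77.9 at 7.5 cGy, and 79.2, 70.2 and 52.7 at 10 cGy. The 3 GM15036 arrays at 10 cGy were above the other 27 arrays, and the remaining doses of that line overlapped. The difference at 10 cGy was 0.61 (SE 0.157, adjusted p = 0.00794) and the slope 0.058 per cGy (SE 0.0152, adjusted p = 0.00793). In GM15510 the slope was 0.005 (adjusted p = 0.931), and the slope difference of 0.053 (adjusted p = 0.117) and the interaction (adjusted p = 0.0526) did not pass.

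The ITGAL calls depended on the scaling of the arrays. When unscaled arrays were centred on their medians, the 10 cGy difference was 0.016 (adjusted p = 0.968) and the slope 0.0018 (0.962), and with centring after scaling they were 0.38 (0.18) and 0.039 (0.14). The 10 cGy call also did not pass without the 5 dimmest arrays (0.45, 0.23), with brightness as a covariate (0.75, 0.071), without replicate c at 1 cGy (0.0764) or without replicate b at 10 cGy (0.072), the second number in each pair being the adjusted p. T- and NK-cell markers, whose cells also carry LFA-1, summed to 65.4 to 81.2 in GM15036 at 10 cGy and 40.2 to 54.0 at 1 cGy, of which only CD3E passed the filter. B-cell markers summed to 2002 to 2167 at 10 cGy and 1635 to 1666 at 1 cGy in that line. They did not move together: 2 of 7 (28.6%) were called at 10 cGy, 1 higher and 1 lower, against 11.7% of all genes. Their median difference was 0.0080. The part of either list in the result was not tested. ITGB2, the partner chain of ITGAL, had a difference of −0.21 at 10 cGy (adjusted p = 0.433) and a slope of −0.020 (0.42) in GM15036.

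Of 18 member probe sets in GM15036, 3 had a called slope (16.7%), ITGAL upwards and 2 of CD58 downwards, against 13.0% of all probe sets (5.23% upwards and 7.77% downwards). The F test across the doses of GM15036 called 4 of 18 (22.2%), 3 of CD58 and ITGAL, against 16.2% of all. In GM15510 that F test called 5 of 19 (26.3%), 4 of CD58 and ICAM3, against 21.0%. The slope difference was called for 4 of 18 (22.2%), all lower in GM15036, against 10.8% of all probe sets called and 6.56% called lower. These shares lie above those of all probe sets by about 1 or 2 probe sets each, and 5 of the 18 or 19 probe sets belong to CD58.

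ICAM4, the Landsteiner-Wiener glycoprotein, was chosen for its slope in GM15036. The signals of 207194_s_at were 5.85, 9.42 and 14.0 at 1 cGy, 8.74, 14.4 and 11.5 at 2.5 cGy, 13.9, 16.6 and 17.3 at 5 cGy, 16.4, 11.3 and 25.8 at 7.5 cGy, and 30.2, 31.5 and 35.2 at 10 cGy in GM15036. The GM15510 arrays gave 7.57, 12.2 and 11.5 at 1 cGy, 17.5, 19.3 and 10.1 at 2.5 cGy, 8.89, 15.1 and 13.3 at 5 cGy, 7.22, 9.86 and 6.83 at 7.5 cGy, and 4.15, 7.54 and 5.79 at 10 cGy. The 3 GM15036 arrays at 10 cGy were the highest of all 30, and the neighbouring doses from 1 to 7.5 cGy overlapped. In GM15036 the log2 differences from 1 cGy were 0.20, 0.57, 0.66 and 1.44 (SE 0.333) at 2.5, 5, 7.5 and 10 cGy, with a slope of 0.146 per cGy. The slope in GM15510 was −0.084 (adjusted p = 0.155), which makes a slope difference of 0.229.

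The ICAM4 differences in GM15036 depended in part on scaling and on the pseudocount. Before scaling, the GM15036 arrays read 6.65, 13.9 and 20.9 at 1 cGy and 10.9, 8.71 and 23.4 at 10 cGy, ranges that overlap. With a pseudocount of 16 in place of 4, the 10 cGy difference was 0.92 and the slope 0.093. Over all other settings the 10 cGy difference lay between 0.92 and 1.77, and without each array between 1.22 and 1.66. The 2.5 cGy difference turned to −0.019 without replicate a at 1 cGy. Erythroid markers come from cells in which ICAM4 is best known. Their sum was 5.33 to 16.4 in GM15036 at 10 cGy and 10.4 to 27.5 at 1 cGy. Over all arrays HBB averaged 14.2 and passed the filter, while ALAS2 and EPB42 averaged 0.914 and 1.77 and did not pass. In GM15510 no dose of ICAM4 was called (adjusted p of 0.452 to 0.866), nor was the F test (0.155).

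ICAM1, the main inducible LFA-1 ligand and the neighbour of ICAM4, showed no called dose difference in either line. Its probe set 202637_s_at gave 72.2, 71.8 and 48.5 in GM15036 at 10 cGy, against 50.5, 48.7 and 63.3 at 1 cGy, and 37.5, 31.8 and 40.8 in GM15510 at 10 cGy, against 46.9, 47.8 and 42.5 at 1 cGy. The GM15036 groups overlapped, while the GM15510 arrays at 10 cGy all lay below those at 1 cGy, by a log2 difference of −0.29 that did not pass (adjusted p = 0.639). The second tested probe set, 202638_s_at, lay the other way in GM15510 at 10 cGy (0.44, adjusted p = 0.352). Across the 10 centred group means the pair correlated at 0.042, so the 2 probe sets did not share a dose course. The ICAM1 slopes in GM15036 were 0.0096 (adjusted p = 0.849) and −0.026 (0.536).

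**Figure D3:**
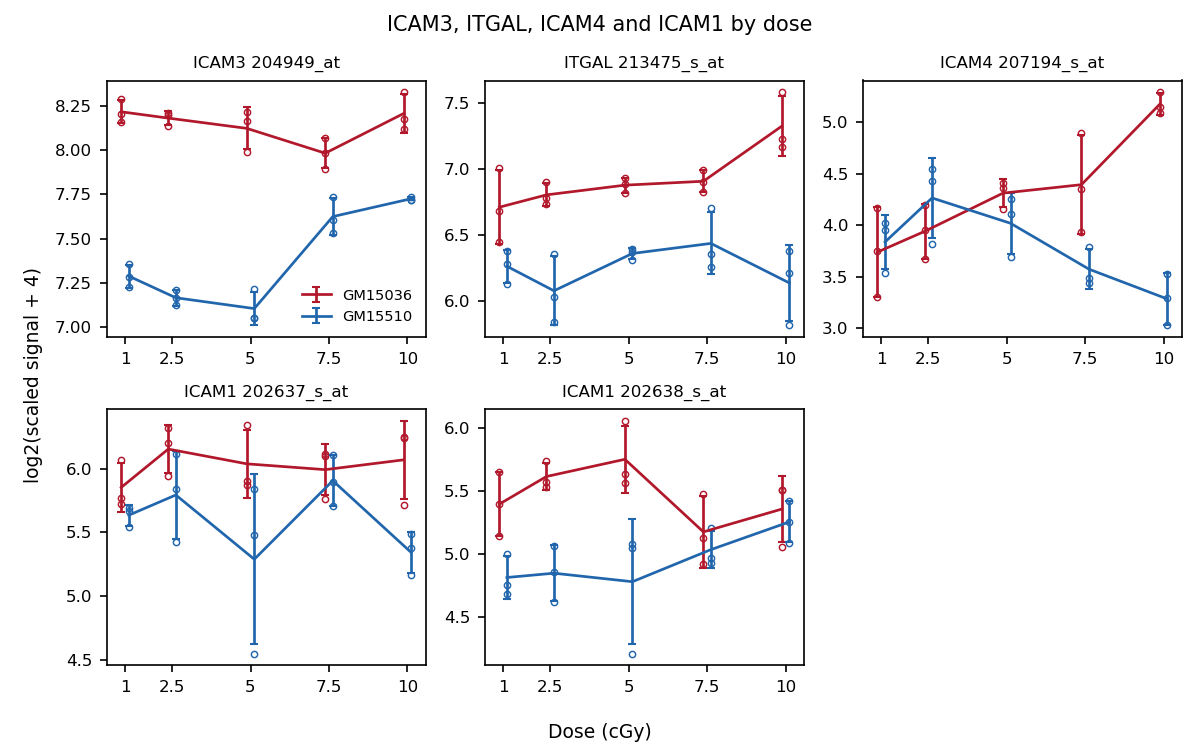
Log2(scaled signal + 4) of ICAM3, ITGAL, ICAM4 and the 2 tested ICAM1 probe sets against dose in cGy, with a point per array, lines through the group means and bars for the SD (n = 3); GM15036 is red and GM15510 blue. ICAM3 is higher at 7.5 and 10 cGy in GM15510, and ITGAL and ICAM4 are highest at 10 cGy in GM15036.

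None of the co-stimulatory molecules other than CD58 passed the test at any dose. CD70, the CD27 ligand, came nearest. Its probe set 206508_at gave 28.6, 30.04 and 23.4 in GM15036 at 1 cGy, 27.8, 32.7 and 29.4 at 2.5 cGy, 35.1, 18.3 and 35.2 at 5 cGy, 34.0, 38.7 and 41.1 at 7.5 cGy, and 42.4, 59.0 and 29.0 at 10 cGy. The 7.5 cGy arrays were all above the 1 cGy arrays, and the 10 cGy arrays overlapped them. The CD70 difference at 10 cGy was 0.56 (SE 0.227, adjusted p = 0.116) and the slope 0.062 per cGy (adjusted p = 0.0591).

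CD80 gave 45.8, 35.1 and 43.5 in GM15036 at 10 cGy, against 47.8, 48.6 and 38.6 at 1 cGy, and its furthest difference was −0.52 at 7.5 cGy (adjusted p = 0.252), where 1 array stood at 18.2. CD86, the other CD28 ligand, had 3 tested probe sets that did not share a direction. At 10 cGy in GM15036 they differed from 1 cGy by 0.26 (205685_at, adjusted p = 0.33), −0.56 (205686_s_at, 0.258) and −0.26 (210895_s_at, 0.511). CD40, the CD40 ligand receptor, was at 0.48 (222292_at, adjusted p = 0.182), 0.47 (215346_at, 0.327) and −0.47 (35150_at, 0.286) in GM15510 at 5 cGy, the last against the other two. FCER2, the IgE receptor, gave 1.09, 1.496 and 10.5 in GM15510 at 2.5 cGy, against 10.6, 6.72 and 10.4 at 1 cGy, which overlap, and the difference of −0.83 did not pass (adjusted p = 0.235).

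**Figure D4:**
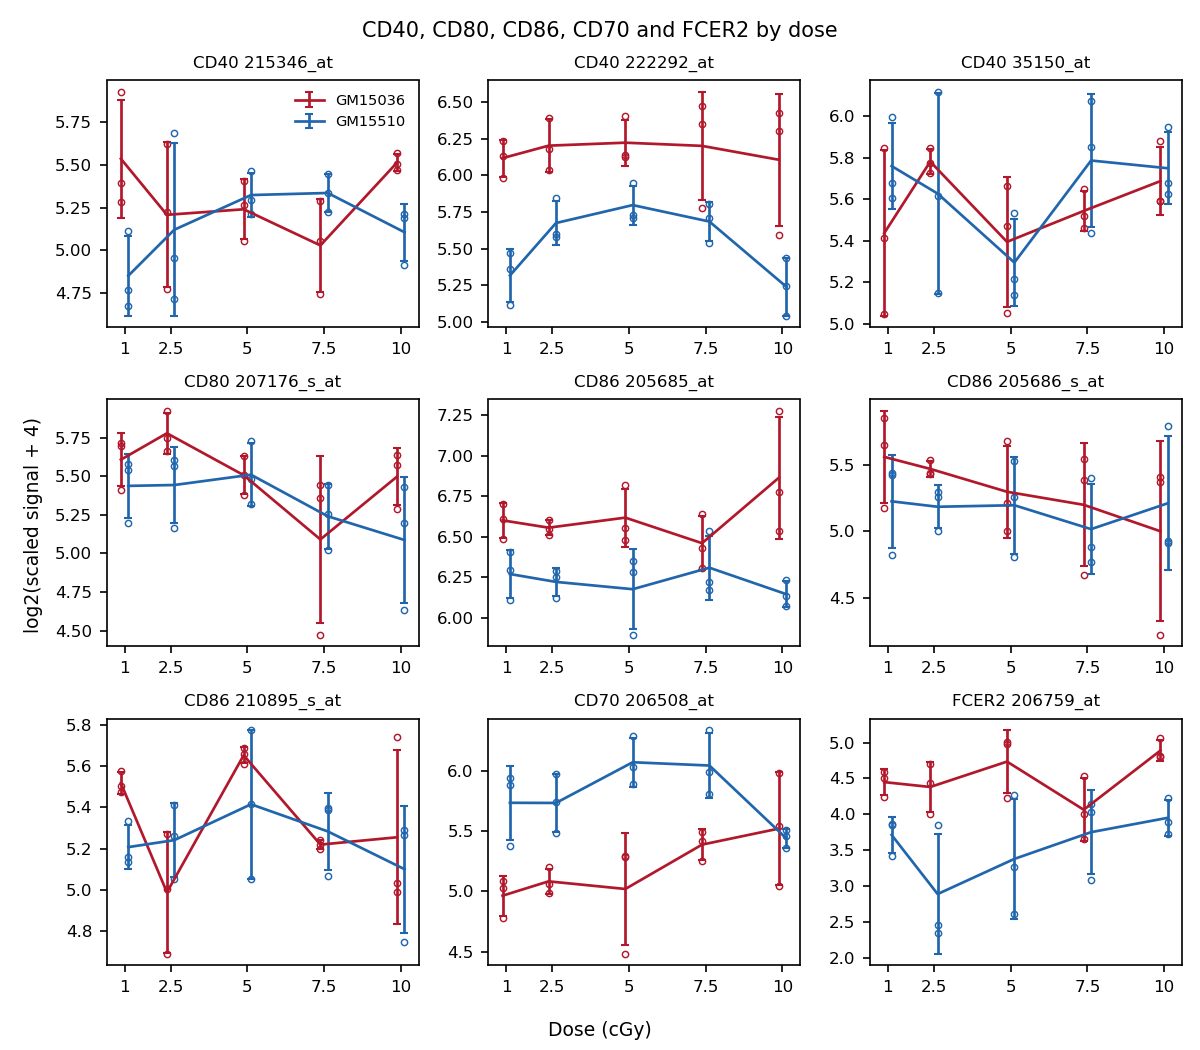
Log2(scaled signal + 4) of the tested probe sets of CD40, CD80, CD86, CD70 and FCER2 against dose in cGy, with a point per array, lines through the group means and bars for the SD (n = 3); GM15036 is red and GM15510 blue. No dose differs from 1 cGy past the threshold in any panel, and CD70 lies lower in GM15036 than in GM15510 up to 7.5 cGy, with overlap at 10 cGy.

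Between the lines, averaged over doses and with ICAM4 set aside, 9 of 18 probe sets (50%), from 8 genes, were called, a share close to the 47.2% of all probe sets. In GM15036 8 of these were higher, against 26.7% of all probe sets, and CD70 alone was lower, against 20.5%. For CD40, CD86 and CD58 only 1 probe set of each gene was called, of 3, 3 and 5 tested. For 8 of 18 the difference had the same sign at all 5 doses, against 33.2% of all. Only ICAM3 among the 18 had no overlap between the 15 arrays of each line, which 3.48% of all probe sets showed.

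ICAM3 ranged from 234 to 317 in GM15036 (median 283) and from 128 to 209 in GM15510 (median 152). Its line difference was 0.76 (SE 0.0407, n = 15 each, adjusted p = 9.32e-17), a ratio of 1.69. By dose it was 0.93, 1.02, 1.02, 0.36 and 0.48 at 1, 2.5, 5, 7.5 and 10 cGy, so the lines lay closest at the doses where GM15510 was higher than at 1 cGy. ITGAL ranged from 83.1 to 187 in GM15036 (median 115.5) and from 52.7 to 100.1 in GM15510 (median 75.7), ranges that overlap. Its difference was 0.67 (SE 0.0702, adjusted p = 1.03e-09) and largest at 10 cGy (1.18). ITGB2, its partner chain, was also higher in GM15036 (0.42, adjusted p = 3.1e-06).

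ICAM1 was higher in GM15036 by both tested probe sets, with medians of 63.3 and 46.9 for 202637_s_at and 41.5 and 28.0 for 202638_s_at in GM15036 and GM15510. The differences were 0.43 (adjusted p = 8.63e-04) and 0.52 (9.77e-05), of which the first did not pass with the replicate label as a block (0.34, 0.083) or with the GAPDH 3′ to 5′ ratio as a covariate (0.29, 0.143). ICAM4 had a median of 14.4 in GM15036 and 9.86 in GM15510, with overlapping ranges. As a description, its lines differed by 0.52 averaged over doses, and by −0.10, −0.33, 0.29, 0.82 and 1.90 at 1, 2.5, 5, 7.5 and 10 cGy.

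CD40, measured by 222292_at, ranged from 44.2 to 84.9 in GM15036 (median 68.7) and from 28.9 to 57.8 in GM15510 (median 43.9), a difference of 0.63 (SE 0.0868, adjusted p = 2.6e-07). The other tested CD40 probe sets gave 0.16 (215346_at, adjusted p = 0.236) and −0.075 (35150_at, 0.572) and did not share it. CD86 had medians of 90.0 in GM15036 and 71.2 in GM15510 for 205685_at (0.39, adjusted p = 1.96e-05), with 0.14 (0.424) and 0.077 (0.551) for its other probe sets. FCER2 had medians of 19.1 and 10.4 in the same order, with a difference of 0.97 (SE 0.187, adjusted p = 5.82e-05), although both lines overlapped. CD70 ran the other way, with medians of 32.7 in GM15036 and 54.8 in GM15510 (−0.61, SE 0.102, adjusted p = 6.89e-06). CD80 did not pass (0.15, adjusted p = 0.23), nor did 4 of the 5 CD58 probe sets, the exception being 222061_at (0.51, adjusted p = 1.37e-04). By dose the 222061_at difference was 0.086, 0.86, 1.16, 0.33 and 0.12 at 1, 2.5, 5, 7.5 and 10 cGy, so it lay mainly at 2.5 and 5 cGy.

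**Figure D5:**
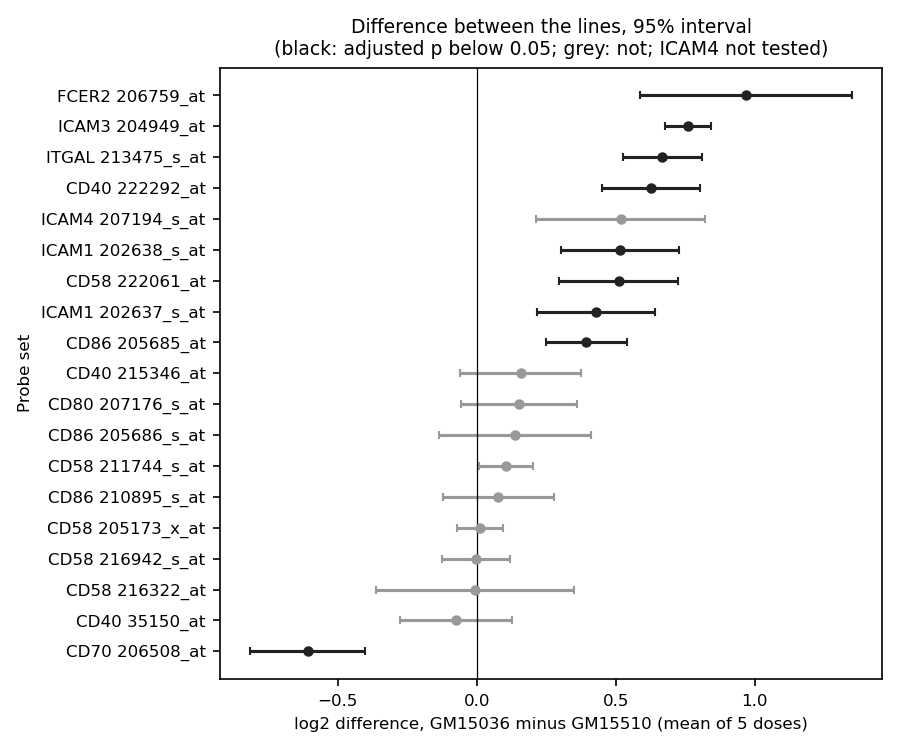
Difference between the lines on the log2 scale, GM15036 minus GM15510 averaged over 5 doses, for the 19 probe sets that passed the filter. Bars are 95% intervals, and black marks an adjusted p below 0.05. ICAM4, grey, was not tested, and its interval rests on the GM15036 values that chose it, so it cannot serve as a test. FCER2 and ICAM3 lie furthest to the positive side (0.97 and 0.76) and CD70 is the called probe set on the negative side (−0.61).

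The binding partners of the members had few called dose differences. CD28 and CTLA4, receptors of CD80 and CD86, and ITGAM, another partner of ITGB2, had no called comparison. Their signals were low, with group means of 11.1 to 24.0 for CD28, 5.85 to 14.9 for CTLA4 and 7.4 to 22.1 for ITGAM. The lack of a call thus says little about dose in these genes. CD2 (the CD58 receptor) and ITGAX did not pass the filter, and CD40LG was not analysed here. CR2, which binds CD23, was lower in GM15036 at 7.5 cGy (−0.89, SE 0.174, adjusted p = 0.00244) and 10 cGy (−0.64, 0.0123), and its slope differed between the lines (−0.10, 0.00435). In the fit with array brightness none of these CR2 results passed: the differences were −0.67 (adjusted p = 0.103) and −0.30 (0.636), and the slope difference −0.041 (0.749). CD27, the CD70 receptor, had a slope difference of −0.091 (adjusted p = 0.0356) and a called interaction (0.0248), with no called dose, and the slope difference passed in 21 of 30 fits without an array.

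Among other genes of co-stimulation, 14 of 22 listed were tested. At 10 cGy in GM15036, 2 of 14 (14.3%) were called, near the 11.7% of 7713 genes. TNFRSF8 (CD30) was higher (0.53, adjusted p = 0.00322) and TNFSF4 (OX40 ligand) was lower (−0.75, 0.0461). The TNFSF4 call passed in 11 of 30 fits without an array and under 9 of 15 other settings, and the difference was −0.48 (adjusted p = 0.285) without replicate a at 10 cGy and −0.28 (0.68) without the 5 dimmest arrays. In GM15510 at 10 cGy 1 of 14 was called (7.14%), near the 6.16% of all genes: CD48, a ligand of CD244, which was lower (−0.68, 0.00422). TNFRSF8 also differed between the lines (1.16, adjusted p = 2.93e-18) and was 1 of 7 of the 14 that did (50%), against 49% of all genes.

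Of 26 listed genes of integrins and leukocyte adhesion, 17 were tested, and 9 of them (52.9%) had a called line by dose interaction, against 20.2% of 7713 genes. The list was chosen with earlier results of these data known, so this share is a description and not a test. The interaction count was not repeated under other settings. ITGA4, the α4 chain, was lower in GM15036 at 7.5 cGy (−0.81, SE 0.129, adjusted p = 3.6e-04) and 10 cGy (−0.77, 1.05e-04). The 10 cGy call of ITGA4 passed under 14 of 15 other settings (highest adjusted p 0.116) and in 30 of 30 fits without an array. ITGB7, a β chain that pairs with it, was higher in GM15510 at 7.5 cGy (0.53, 0.00176) and 10 cGy (0.64, 3.16e-05). CD44, the hyaluronan receptor, was higher in GM15510 at 10 cGy (0.42, 0.00155). It was also the 1 of 17 called in GM15036 at 5 cGy (5.88%, against 0.117% of all genes), where it was higher as well (0.39, 0.0404), a call that passed in 18 of 30 fits without an array and under 8 of 15 other settings. RAP1A and RAP1B, small GTPases that activate LFA-1, were lower in GM15036 at 10 cGy (−0.37, adjusted p = 0.0243, and −0.45, 0.0182). Neither passed without the 5 dimmest arrays (−0.20, adjusted p = 0.433, and −0.25, 0.497) or with brightness as a covariate (−0.30, 0.395, and −0.28, 0.524), and RAP1A was at −0.18 (0.295) without replicate a at 10 cGy. SPN (CD43), a sialylated protein of the leukocyte surface, was higher at 2.5 cGy (1.68, 0.0181) and lower at 10 cGy (−2.03, 0.00508) in GM15510. Without replicate 3 at 10 cGy the second SPN difference was −1.20 (adjusted p = 0.113), and the first passed under 8 of 15 other settings.

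Of 20 listed genes of CD40 signalling and B cell activation, 17 were tested, and 8 (47.1%) had a called interaction, against 20.2% of 7713 genes. This list too was chosen with earlier results known, so the share is a description, and the interaction count was not repeated under other settings. At 10 cGy in GM15036, 4 of 17 (23.5%) were called, against 11.7% of all genes. RELB, an NF-κB subunit of the CD40 pathway, was higher (1.44, SE 0.457, adjusted p = 0.0341), as were TRAF3, a CD40 adaptor (0.65, 0.0156), and STAT6, which acts downstream of the IL-4 receptor (0.36, 0.00488), and CR2 was lower. TRAF3 was at 0.075 (adjusted p = 0.84) when unscaled arrays were centred on their medians, and RELB passed under 8 of 14 other settings and in 26 of 30 fits without an array. CD69, an early activation antigen, was lower in GM15036 at 7.5 cGy (−0.83, 0.00227). In GM15510 at 2.5 cGy, 2 of 17 were called (11.8%, against 9.24% of all genes), CD83, which was higher (0.34, 0.0116), and CR2, which was lower (−0.53, 0.0473). The CR2 call there passed in 15 of 30 fits without an array, and that of CD83 did not pass with brightness as a covariate (0.27, adjusted p = 0.44) or without the 5 dimmest arrays (0.25, 0.26). At 10 cGy 1 of 17 was called (5.88%, against 6.16%): ADAM10, the protease that sheds CD23, which was higher (0.30, 0.02). The ADAM10 call passed under 11 of 15 other settings and in 26 of 30 fits without an array. Its adjusted p was 0.106 without replicate 2 at 10 cGy. When unscaled arrays were centred on their medians, the 10 cGy differences of TNFRSF8 (−0.089) and STAT6 (−0.28) and the 2.5 cGy difference of CD83 in GM15510 (−0.41) turned sign.

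Among 11644 to 11648 probe sets of other genes, those whose 10 line-centred group means followed a member most closely were found for the 4 genes with dose patterns. ICAM3 was followed by DDX24 (Pearson r = 0.960), IFFO1 (0.949) and RTN3 (0.941), and ITGAL by GPKOW (0.981), IRF3 (0.930) and TULP3 (0.925). ICAM4 was followed by IRF2BP1 (0.965), HOOK1 (0.952) and CAMSAP1 (0.950), and CD58 222061_at by TSN (0.945), FKBP15 (0.943) and KDM3B (0.932). The CD58 probe set used here did not share the dose course of 216942_s_at, 211744_s_at and 205173_x_at. These are the highest of very many values over 10 points that share arrays, brightness and scaling.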

How the data were processed

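The data were signal intensity values of an Affymetrix 3′ expression array for GM15036 and GM15510 at 5 doses of radiation, 3 arrays per group. Total RNA was purified with a Qiagen method and carried a biotin label per the labels' protocols, and per the design text of the series it was amplified with an Arcturus T7 kit. The deposited intensity values are linear MAS5 signals per the submitters' processing notes, of a version and scaling the sources used here do not give.

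The trimmed means of the arrays (2 to 98 percent of values) differed by 7.91 times, over the tolerance of 1.2, so arrays were multiplied to a shared trimmed mean of 50.9. Log2 was taken after a pseudocount of 4, and probe sets in the lowest 40 percent of mean log2 were left out, whatever their group. The annotation gave 1 gene for 19071 of 22283 probe sets, several for 1043 and none for 2169. Symbols of 19059 were matched through the gene ID to RefSeq. Arrays of a group correlated at 0.901 to 0.972, and 0 pairs were identical.

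One fit with limma 3.58.1 in R 4.3.3 covered all 30 arrays and the 10 groups of line and dose (eBayes with intensity trend, two-sided, 20 residual and 12.3 prior degrees of freedom), so that all groups shared 1 estimate of the spread. It gave each dose against 1 cGy, a dose slope fitted through the 5 group means, F tests over the doses of a line, the line by dose interaction, the slope difference and the line difference, all GM15036 minus GM15510 between lines. P-values were adjusted by Benjamini-Hochberg over all 13329 probe sets, with a threshold of 0.05, and comparisons within a line share their 1 cGy arrays.

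The members, the 3 gene lists and the 6 marker lists were chosen with earlier results of these data known. Every member probe set is reported; a listed gene has 1 probe set, the brightest, with _x_at and _s_at sets used only for lack of others, and from a list at most 4 genes past the threshold in a comparison, those of smallest p, are named, besides the binding partners of members. Genes of similar pattern are the 3 highest Pearson correlations over the 10 group means centred within each line, for CD58, ICAM3, ICAM4 and ITGAL. ICAM4 entered no test or count that uses its values in GM15036, the line difference included, since its slope there chose it. The scripts were tested on simulated data.

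Alternatives were quantile normalization, median centring of unscaled or of scaled arrays, pseudocounts of 1 and 16, other filters, eBayes without trend or robust, array weights, the replicate label as a block, each line fitted alone, brightness or the GAPDH 3′ to 5′ ratio as a covariate, slopes without the 10 cGy dose, and each array left out in turn. Omission of the 5 dimmest arrays was added after the data were seen.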

Additional observations from a re-analysis of the deposited data

Results flagged for a closer look

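The dose course differed between GM15036 and GM15510, by limma's F test of the line by dose interaction, for CD58 by 4 probe sets and for ICAM3. The adjusted p was 8.78e-06 for CD58 216942_s_at, 1.09e-05 for 211744_s_at, 2.28e-05 for 205173_x_at and 0.0444 for 222061_at, and it was 1.24e-04 for ICAM3 204949_at. By the linear slope on dose, GM15036 minus GM15510, the lines differed by −0.099 log2 units per cGy for 216942_s_at, −0.050 for 211744_s_at and −0.038 for 205173_x_at, all of CD58. For ICAM3 the slope difference was −0.070. With array brightness in the fit none of these slope differences passed (adjusted p = 0.174, 0.492, 0.937 and 0.205 in the same order). In fits without an array, the slope difference of 205173_x_at passed in 11 of 30 and the interaction of 222061_at in 9 of 30. ICAM4 was not tested for such a difference because it was chosen for its slope in GM15036.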

How the results depend on the processing

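Of 45 called results of member probe sets, 20 were called under every other setting, 27 without each array in turn and 19 under both. All 9 line calls stood without each array, and the count ranged from 8 to 10 over settings. The 8 calls against 1 cGy in GM15036 became 5 with eBayes without trend and 5 with brightness as a covariate. The 6 in GM15510 became 13 with median centring of unscaled arrays, 3 without trend and 3 with that line fitted alone. The 3 slopes in GM15036 became 8 with median centring, 1 with brightness, 1 with the GAPDH ratio, 1 without the 5 dimmest arrays and 0 without the 10 cGy dose, where GM15510 had 2. The 1 slope in GM15510 became 5 with median centring and 2 with array weights. F-test calls became 8 from 4 in GM15036 and 11 from 5 in GM15510 with median centring, and 2 in GM15510 with brightness. With median centring the interaction calls were 9 in place of 5, and the slope differences were 9 in place of 4, against 0 with brightness and 2 without the 5 dimmest arrays. The cause was not tested, except that fewer arrays or doses entered where some were left out.

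Without each array in turn the counts were 5 to 9 and 2 to 6 (dose calls of GM15036 and GM15510), 1 to 4 and 1 to 1 (slopes), 3 to 4 and 2 to 6 (F tests), 4 to 7 (interaction), 2 to 5 (slope difference) and 9 to 10 (line). Dose calls were fewest without replicate b of GM15036 at 1 cGy (5), without replicate 1 of GM15510 at 1 cGy (2) and without replicate 1 or 3 of GM15510 at 7.5 cGy (3). The GM15036 slopes were 1 without replicate b at 10 cGy. The GM15510 F tests gave 2 without replicate 2 at 7.5 cGy and 3 without replicate 1 at 2.5 or 7.5 cGy. The slope differences were 2 without replicate a of GM15036 or 1 of GM15510 at 10 cGy.

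With the replicate label as a block, the counts were 7 and 4 for dose calls, 3 and 1 for slopes, 4 and 4 for F tests, 4 for the interaction, 4 for the slope difference and 8 for the line. The labels share only a number or letter: deviations of same-labelled arrays correlated at −0.061 to 0.097, so they were not taken as paired.

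Signs that turned were few. ICAM4 at 2.5 cGy in GM15036 lay between −0.019 (without replicate a at 1 cGy) and 0.42 (without replicate c) when arrays were left out. With median centring, STAT6 was −0.28 at 10 cGy (slope −0.023, slope difference −0.064), TNFRSF8 −0.089 (slope −0.017), CD83 in GM15510 at 2.5 cGy −0.41, the TRAF3 slope difference −0.0078 and the RAP1A slope in GM15510 0.0014. Without the 10 cGy dose the slopes were −0.0036 for TNFRSF8, and 0.043 for CD48 and 0.023 for SPN in GM15510. Median centring of unscaled arrays shifted the median of all probe sets by −0.38 in GM15036 at 10 cGy, where 74 were called higher and 4251 lower in place of 585 and 980, and by −0.50 in GM15510 at 2.5 cGy, with 74 higher and 5618 lower in place of 523 and 742. Centring after scaling shifted them by −0.20 (123 higher, 2179 lower) and −0.28 (127 higher, 2551 lower). Those 2 groups had the lowest mean brightness (22.1 and 18.7), and the part of brightness in these shifts was not tested.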
